A study of Mus musculus with 10 samples.

Results

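Phosphatidylserine is a phospholipid that living cells keep on the inner face of the plasma membrane, and its appearance on the outer face marks a cell for uptake by phagocytes. Phosphatidylserine synthases make the lipid, flippases carry it back to the inner leaflet, and scramblases let it cross to the outer leaflet when they are activated. Mertk, a receptor tyrosine kinase of macrophages, binds exposed phosphatidylserine through bridging proteins. The genes described here are the 9 members Ptdss1, Ptdss2, Pisd, Xkr8, Ano6, Atp11a, Tmem30a, Plscr1 and Plscr3, chosen by symbol from the 21938 genes of the deposited tables. All 9 were present in every table, and all 9 were among the 11564 genes with at least 10 reads in at least 3 of the 10 libraries.

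The libraries hold RNA of sorted tumour-associated macrophages from C57BL/6 mice. The mice carried PyMT mammary tumour cells, whose oncogene is the polyoma virus middle T antigen, in 2 mammary glands for 5 weeks. The control group had 3 libraries from WT mice with WT tumour cells, and the Mertk KO group had 4 libraries from mice labelled with a macrophage-specific MerTK KO, also bearing WT tumour cells. The Ptdss1 knockdown group had 3 libraries from WT mice in which the tumour cells, not the macrophages, carried the knockdown. The driver of the knockout, the knockdown construct, the number of tumour cell clones and any pooling of animals are not stated in the labels. Whether each library came from its own mouse is not stated either, and p-values here reflect library-to-library spread, which may be technical. The design asks how the macrophage state differs when the receptor is lost on the macrophage or the lipid synthase is lowered in the tumour cell. The members were read in the macrophages only, so their values say nothing about the knockdown in the tumour cells.

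Mertk itself was read in all 10 libraries. Its level, as log2(normalised reads + 1), was 10.63, 9.72, 9.24 and 8.95 in the libraries labelled Mertk KO, 9.64, 9.26 and 10.97 in control, and 7.47, 10.20 and 9.003 in Ptdss1 knockdown. The knockout and control libraries overlapped, so the gene's total does not bear out the label. The deleted exons are not stated and the tables hold 1 value per gene, so a loss of some exons could not be checked. Mertk KO below names the label, and every direction given for that group rests on it.

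Totals of recovered reads ran from 10292592 to 25815071 per library. All 8 macrophage markers examined, among them Adgre1, Csf1r, Cd68, Itgam, Fcgr1, Lyz2 and C1qa, had at least 1081 reads in every library. A pair of libraries stood apart. Of the genes that 7 or more other libraries held at 10 reads or above, 31.5% fell short of 10 reads in Ptdss1 knockdown replicate 1 and 13.1% in control replicate 2, against 0.108% to 8.60% in the other 8. Among those 8, Mertk KO replicates 3 and 4 had the highest shares, 8.60% and 5.75%, against at most 1.28% in the rest. Detection thus still differed between the groups over the 8 libraries. The first principal component (41.3% of the variance) placed Ptdss1 knockdown replicate 1 far from all others, and the second (18.0%) did so for control replicate 2. The members' differences from control are therefore given with all 10 libraries and again over the 8 others. Other values are repeated over the 8 for some genes only, and those given once may also have moved.

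The members followed the same split. In Ptdss1 knockdown replicate 1, 4 of the 9 members had fewer than 10 reads, namely Ptdss1, Xkr8, Plscr1 and Plscr3, and 3 others, Ptdss2, Pisd and Atp11a, were at their highest level of all libraries. In control replicate 2, Ptdss2 and Xkr8 had fewer than 10 reads, while Ptdss1, Tmem30a and Plscr3 were at their highest. Mertk KO replicate 1, the shallowest library, had fewer than 10 reads of Xkr8, and the other 7 libraries had at least 10 reads of every member.

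Per unit of exon length, Tmem30a was the most abundant member in 8 of 10 libraries, and Pisd was in the other 2, Mertk KO replicate 3 (43.0 against 31.9 RPKM) and Ptdss1 knockdown replicate 1 (41.5 against 27.5). Tmem30a encodes the CDC50A subunit that flippases need to leave the endoplasmic reticulum. In RPKM, recovered reads scaled to exon length and library total, its median over 10 libraries was 30.2, with a range of 26.2 to 57.4. Plscr1 had a median of 14.2, Pisd of 14.3, Ptdss1 of 10.6 and Plscr3 of 7.84. Atp11a and Ano6 had medians of 2.28 each, Ptdss2 of 1.41 and Xkr8 of 0.668. Tmem30a lay above Plscr1 with no overlap, but its range overlapped that of Pisd. Each neighbouring pair from Plscr1 down had overlapping ranges, also over the 8 libraries. Plscr1 exceeded Pisd in 5 of 10 libraries and Ptdss1 exceeded Plscr3 in 5. Atp11a exceeded Ano6 in 3 and Ptdss2 exceeded Xkr8 in 6, so none of these pairs was separated. A bulk level cannot tell fewer expressing cells from less RNA per cell.

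**Figure D1:**
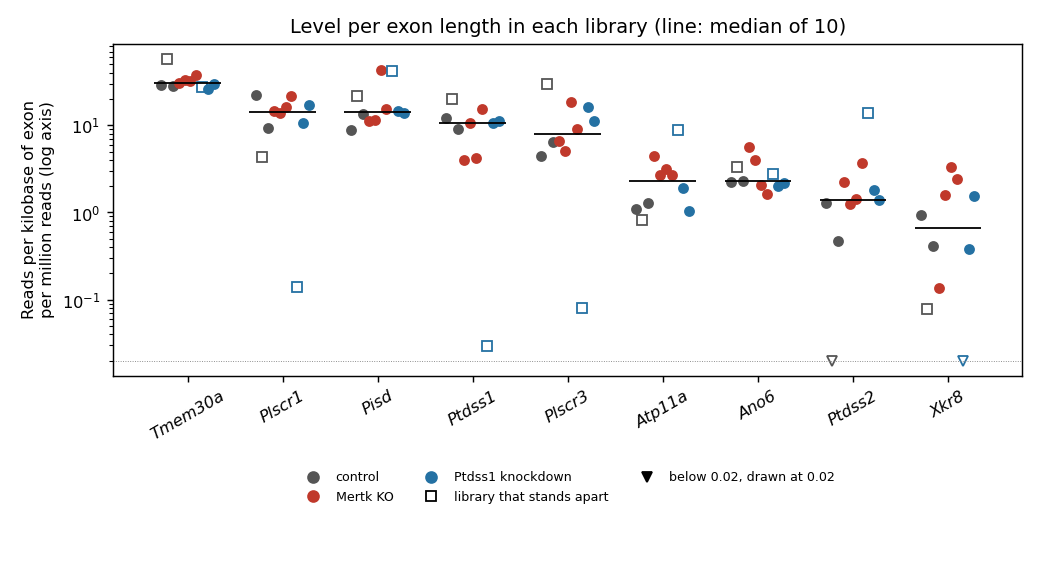
Level of the 9 members per exon length (vertical log axis, RPKM) in each of the 10 libraries, coloured by group, with the median as a line and open squares for control replicate 2 and Ptdss1 knockdown replicate 1. Tmem30a, with a median of 30.2, is the highest member in 8 of 10 libraries and Pisd in the other 2, and values below 0.02 are drawn at 0.02.

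All levels below are log2(normalised reads + 1), and differences are on that scale. None of the 9 members passed an adjusted p of 0.05 in any of the 3 comparisons, by limma with Benjamini-Hochberg adjustment over all 11564 genes. In Mertk KO against control 0.0173% of all genes passed, which is 2 genes, and in the other comparisons 0% did. The smallest adjusted p of any member was 1.0 in Mertk KO against control, 0.841 in Ptdss1 knockdown against control and 0.805 in Mertk KO against Ptdss1 knockdown. At an unadjusted p below 0.05 there were 0, 1 and 0 members in these comparisons, and 238, 335 and 431 of all genes tested. The interval of each difference, given below, shows how large a change these libraries could still hold.

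**Figure D2:**
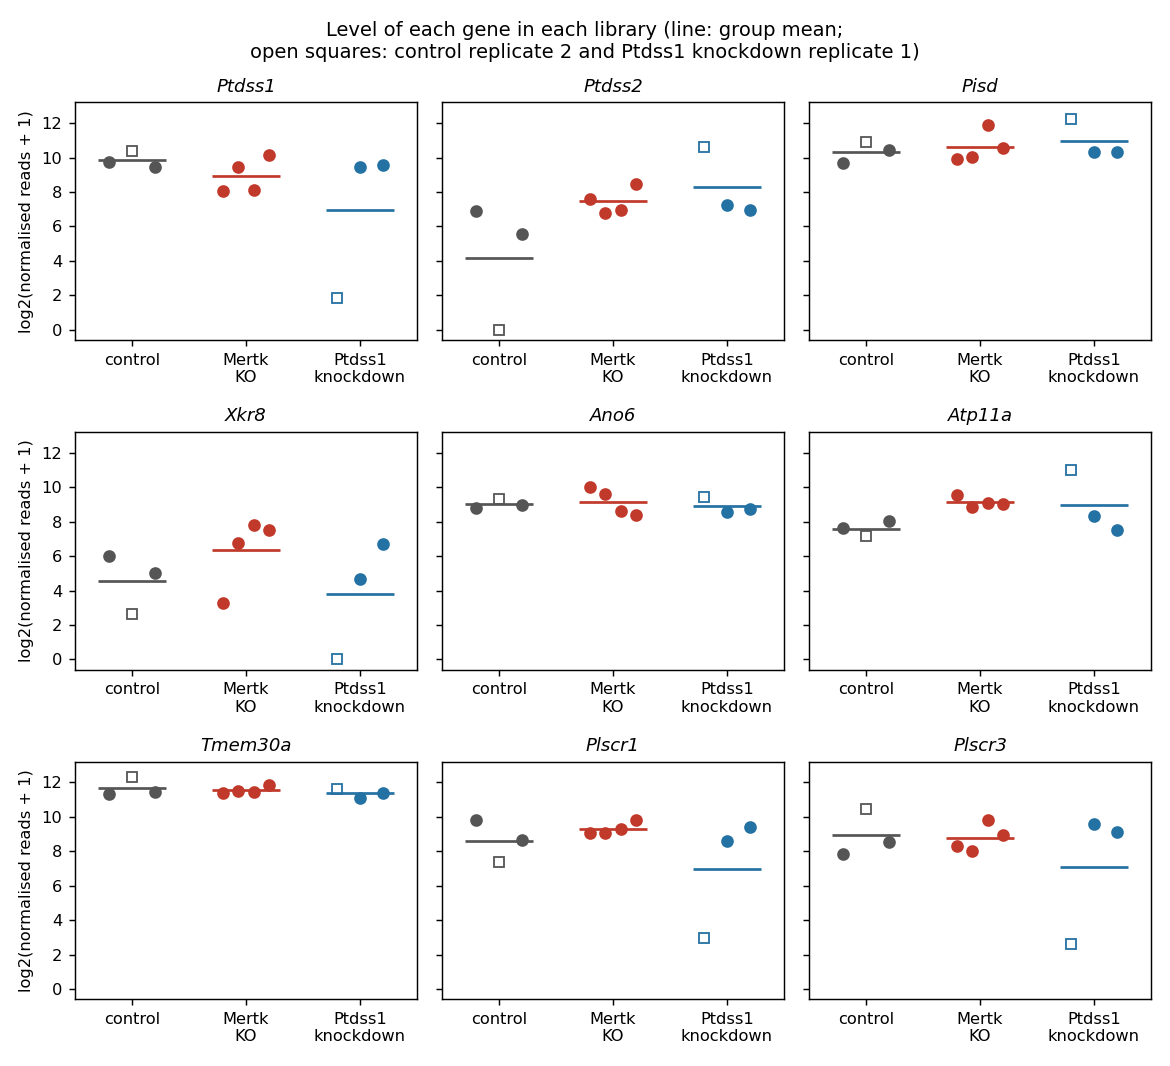
Level of each member, as log2(normalised reads + 1), in each library of the 3 groups; points are libraries, lines are group means, and open squares mark control replicate 2 and Ptdss1 knockdown replicate 1. For Atp11a the 4 Mertk KO points all lie above the 3 control points, and the wide scatter of Ptdss1, Ptdss2, Plscr1 and Plscr3 comes with the open squares. Xkr8 is also widely spread among the filled points, from 3.29 in Mertk KO replicate 1 to 7.80 in Mertk KO replicate 3.

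The synthases were read at unequal levels. Ptdss1 (ENSMUSG00000021518, chromosome 13, 66932830 to 66998401, plus strand, GRCm38) encodes the enzyme that swaps the choline of phosphatidylcholine for serine. Its control levels were 9.73, 10.36 and 9.44, the Mertk KO levels 8.04, 9.47, 8.14 and 10.12, and the Ptdss1 knockdown levels 1.85, 9.43 and 9.58. Apart from Ptdss1 knockdown replicate 1, with 3 reads, every library had at least 179 reads of it and the 3 groups overlapped. The difference of Ptdss1 knockdown from control was -2.89 (SE 1.52, 95% interval -6.11 to 0.34, limma adjusted p = 0.841). Without the 2 libraries that stood apart it was -0.08 (95% interval -1.49 to 1.33, limma adjusted p = 1.0). In Mertk KO the difference was -0.90 (95% interval -3.92 to 2.12), and -0.64 (95% interval -1.86 to 0.58) over the 8 libraries. The exons of Ptdss1 share 229 bases with those of Mterf3 on the other strand, and the library kit does not mark strand. Mterf3 had 923 reads in the library with 3 reads of Ptdss1.

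Ptdss2 (ENSMUSG00000025495, chromosome 7, 141122382 to 141157606, plus strand) encodes the second synthase, which uses phosphatidylethanolamine. Its level was 6.88, 0 and 5.58 in control, 7.59, 6.81, 6.98 and 8.47 in Mertk KO, and 10.64, 7.26 and 6.96 in Ptdss1 knockdown. All 3 Ptdss1 knockdown libraries were above all 3 control libraries, the nearest being 6.96 against 6.88, and the Mertk KO and control ranges overlapped. The extremes were both libraries that stand apart: control replicate 2 had 0 reads, which allows up to 0.205 RPM (reads scaled to the library total), and Ptdss1 knockdown replicate 1 had 1836, against 0 to 443 elsewhere. Against control, the difference was 4.13 in Ptdss1 knockdown (SE 1.80, 95% interval 0.34 to 7.92, limma adjusted p = 0.841) and 3.31 in Mertk KO (SE 1.69, 95% interval -0.24 to 6.86, limma adjusted p = 1.0). Over the 8 libraries these shrank to 0.88 (95% interval -1.26 to 3.01) and 1.23 (95% interval -0.61 to 3.08). Both comparisons use the same control libraries. Per exon length Ptdss1 exceeded Ptdss2 in all 8 libraries other than those that stand apart, by 1.79 to 19.5 times. The ratio was 9.47 and 19.5 in control replicates 1 and 3, 1.79, 8.36, 2.93 and 4.12 in Mertk KO, and 5.94 and 8.16 in Ptdss1 knockdown replicates 2 and 3. The 4 Mertk KO ratios were thus below both of those control ratios, and so were the ratios of Ptdss1 knockdown replicates 2 and 3. The Mertk KO ratios rest on 131 to 443 reads of Ptdss2. The control ratios rest on 144 reads in replicate 1 and 64 in replicate 3. No test was made of this ratio.

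Pisd (ENSMUSG00000023452, chromosome 5, 32736301 to 32785646, minus strand) encodes the mitochondrial decarboxylase that turns phosphatidylserine into phosphatidylethanolamine. It was at 9.69, 10.91 and 10.43 in control, 9.93, 10.01, 11.91 and 10.55 in Mertk KO, and 12.25, 10.30 and 10.30 in Ptdss1 knockdown. Single libraries, Mertk KO replicate 3 and Ptdss1 knockdown replicate 1, were high and the groups overlapped. The differences from control were 0.25 in Mertk KO (95% interval -0.998 to 1.51) and 0.60 in Ptdss1 knockdown (95% interval -0.74 to 1.94). They were 0.54 and 0.24 over the 8 libraries. Leaving out Mertk KO replicate 3 gave -0.18, and leaving out Ptdss1 knockdown replicate 1 gave -0.045. The annotation holds the pseudogenes Pisd-ps1 on chromosome 11 and Pisd-ps2 on chromosome 17, with which Pisd may share reads, so its level is uncertain to that extent. The exons of Pisd also share 1156 bases with Gm20671 and 196 with Gm43695, both on the same strand. Gm20671 had 0 reads in every library.

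Of the flippase genes, Atp11a was the member that stood apart in the Mertk KO libraries. Atp11a (ENSMUSG00000031441, chromosome 8, 12757014 to 12868728, plus strand) encodes a P4-ATPase of the plasma membrane that carries phosphatidylserine and phosphatidylethanolamine inward and that effector caspases cut during apoptosis. Its level was 7.64, 7.14 and 8.01 in control, against 9.55, 8.86, 9.09 and 9.01 in Mertk KO, so all 4 libraries labelled Mertk KO, in which Mertk itself was not low, lay above all 3 controls, 8.86 against 8.01 at the nearest. The means were 7.60 ± 0.44 (SD, n = 3) and 9.13 ± 0.30 (SD, n = 4). The difference was 1.53 (SE 0.87, 95% interval -0.30 to 3.36), a 2.89-fold higher mean, and it did not pass (limma adjusted p = 1.0). It ranked 581st by p among all 11564 genes.

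In Mertk KO against control, 1 of 9 members was higher with no overlap of the libraries and 0 of 9 were lower in that way, where 3.00% and 2.62% of all genes tested were. In the 8 libraries the Atp11a difference was 1.30 (SE 0.50, 95% interval 0.23 to 2.37), again short of the threshold (limma adjusted p = 0.907). In that fit 580 of the 11564 genes tested had an unadjusted p below 0.05, and 1 member, Atp11a, was among them. Leaving out any 1 library gave an Atp11a difference of 1.30 to 1.74. In Ptdss1 knockdown, Atp11a was at 10.98, 8.31 and 7.51, which overlapped control. That difference was 1.34 (95% interval -0.62 to 3.30) with Ptdss1 knockdown replicate 1 and 0.32 without it. Over the 8 libraries it was 0.088 (95% interval -1.15 to 1.32). The direct difference of Mertk KO from Ptdss1 knockdown was 0.19 (95% interval -1.64 to 2.03), and 1.22 (95% interval 0.15 to 2.29, limma adjusted p = 0.995) over the 8 libraries.

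The summed markers of epithelial or tumour cells and of NK cells also differed between Mertk KO and control, though not every marker of each list did. The 9 epithelial or tumour cell markers summed to 65.3 to 160 RPM in Mertk KO and 21.3 to 33.0 in control, with 2 to 5 of 9 markers at 10 reads or more per library in both groups. Cdh1 had 612, 1060, 1849 and 1218 reads in Mertk KO and 399, 299 and 587 in control, and Krt8 had 69, 83, 1 and 1535 against 54, 0 and 98. Krt18 had 0, 52, 0 and 647 against 158, 0 and 27, and Erbb3 had 1, 30, 0 and 0 against 20, 1 and 47. Epcam, Krt19 and Cldn4 had 0 reads in all 7 libraries. The 6 NK cell markers summed to 14.6 to 44.7 RPM in Mertk KO and 84.7 to 140 in control, with Ncr1 at 0 in all 7. Klrk1 had 57, 414, 277 and 673 reads in Mertk KO and 799, 1648 and 1322 in control. Nkg7 had 160, 374, 2 and 0 against 1081, 393 and 670, and the reads of Klrb1c, Gzmb and Prf1 overlapped. The sums of the fibroblast, endothelial, T cell, B cell, neutrophil and dendritic cell markers overlapped between these groups. The part of these cells in the Atp11a level was not tested. Short stretches of its exons, 199 and 172 bases, overlap the antisense genes Gm15350 and Gm15347.

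Tmem30a (ENSMUSG00000032328, chromosome 9, 79768943 to 79793507, minus strand), the partner subunit of Atp11a and most other flippases, was the steadiest member. It lay at 11.34, 12.28 and 11.46 in control, 11.35, 11.50, 11.45 and 11.82 in Mertk KO, and 11.63, 11.11 and 11.37 in Ptdss1 knockdown. All 10 libraries fell within 1.16 of each other, and 1.89% of all genes tested had a smaller residual SD than its 0.33. The difference from control was -0.16 in Mertk KO (95% interval -1.02 to 0.70) and -0.32 in Ptdss1 knockdown (95% interval -1.24 to 0.60). These were 0.13 and -0.16 over the 8 libraries. Within libraries, Tmem30a exceeded Atp11a per exon length by 6.91, 12.3, 10.2 and 13.8 times in Mertk KO and by 25.8, 69.8 and 21.6 times in control. In Ptdss1 knockdown the ratio was 3.09, 13.8 and 28.8. The Mertk KO ratios were below every control ratio, and this is the Atp11a difference seen again.

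The other flippases set Atp11a in context. Of 14 other P4-ATPases listed, 13 were in the tables and 8 were tested, and 0 passed in any comparison. Atp8a1, a phosphatidylserine flippase of internal membranes, had a higher median per exon length (6.77 RPKM) than Atp11b (5.35), Atp9b (2.74), Atp11a (2.28) and Atp8b4 (2.10). Atp8a1 exceeded Atp11a 6.60, 20.4 and 4.81 times in control, 2.47, 3.37, 1.73 and 2.65 times in Mertk KO, and 3.35 and 6.02 times in Ptdss1 knockdown replicates 2 and 3. In Ptdss1 knockdown replicate 1 Atp8a1 was below Atp11a, at 0.538 against 8.90 RPKM. The 4 Mertk KO ratios were all lower than the 3 control ratios, and with Atp11a as the denominator this repeats the Atp11a difference. Atp8a1 itself differed from control by -0.26 in Mertk KO, or 0.13 over the 8 libraries. These ratios were not tested, and they were picked after the levels were seen.

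**Figure D3:**
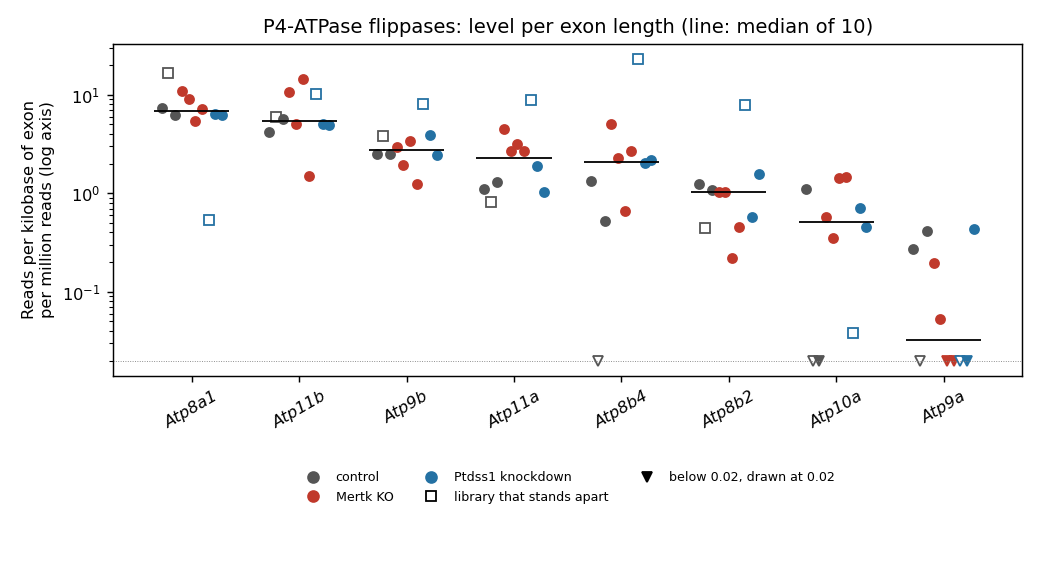
Level per exon length (vertical log axis, RPKM) of 8 tested P4-ATPase genes in each library, coloured by group, with the median as a line, open squares for the 2 libraries that stand apart and triangles for values below 0.02. Only for Atp11a among these genes do all 4 red Mertk KO points lie above all 3 grey control points.

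Among those flippases, the smallest unadjusted p in Mertk KO belonged to Atp8b4 at 3.44 (SE 1.68, limma adjusted p = 1.0) and Atp10a at 3.70 (SE 1.91, limma adjusted p = 1.0). Both were lower over the 8 libraries, at 1.25 and 2.46. In Ptdss1 knockdown they were Atp8b4 at 4.66 (SE 1.79, limma adjusted p = 0.841) and Atp8a1 at -1.67 (SE 0.70, limma adjusted p = 0.841). Over the 8 libraries these were 1.18 and -0.24. Like Ptdss2, Atp8b4 was listed at 0 in control replicate 2 and was highest in Ptdss1 knockdown replicate 1. The other CDC50 subunits, Tmem30b and Tmem30c, had at most 1 read in any library, which leaves Tmem30a as the subunit gene that was read.

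The scramblase genes differed in how steadily they were read. Ano6 (ENSMUSG00000064210, chromosome 15, 95790843 to 95974751, plus strand) encodes TMEM16F, the calcium-activated scramblase. It was at 8.79, 9.29 and 8.98 in control, 10.01, 9.58, 8.64 and 8.40 in Mertk KO, and 9.42, 8.55 and 8.73 in Ptdss1 knockdown. Mertk KO held both the highest and the lowest library, so the groups overlapped. The differences from control were 0.14 (95% interval -1.26 to 1.54) in Mertk KO and -0.12 (95% interval -1.62 to 1.38) in Ptdss1 knockdown, and over the 8 libraries 0.27 and -0.25. Of the 9 other anoctamins, Ano8 and Ano10 were tested and 0 passed. Ano10 was at 2.32 (SE 1.63, limma adjusted p = 1.0) in Mertk KO and at 0.92 (SE 1.74) in Ptdss1 knockdown, which were 1.93 and 1.76 over the 8 libraries. Its median was 0.812 RPKM, below that of Ano6.

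Xkr8 (ENSMUSG00000037752, chromosome 4, 132724897 to 132732546, minus strand) encodes the scramblase that caspases switch on in apoptotic cells. It had the lowest median RPKM of the members, though it was not below Ptdss2 in every library. Its level was 6.03, 2.64 and 5.02 in control, 3.29, 6.74, 7.80 and 7.49 in Mertk KO, and 0, 4.67 and 6.72 in Ptdss1 knockdown. Its 0 reads in Ptdss1 knockdown replicate 1 allow up to 0.128 RPM, and 3 libraries had under 10 reads. Of the Mertk KO libraries, 3 of 4 exceeded every control library and replicate 1, with 6 reads, did not. The difference was 1.77 (SE 1.94, 95% interval -2.31 to 5.85, limma adjusted p = 1.0), and 0.81 (95% interval -2.34 to 3.96) over the 8 libraries. In Ptdss1 knockdown it was -0.76 (95% interval -5.12 to 3.59) with all libraries and 1.13 without its replicate 1. The direction thus rests on that library. Over the 8 libraries the difference was 0.17 (95% interval -3.46 to 3.81). Its chaperones Bsg and Nptn, which bring Xkr8 to the plasma membrane, were far more abundant, with medians of 340 and 29.5 RPKM. Bsg differed by 0.37 (SE 0.37) in Mertk KO and 0.19 (SE 0.39) in Ptdss1 knockdown, or 0.51 and 0.46 over the 8 libraries, and neither chaperone passed.

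Both tested members of the phospholipid scramblase family shared the gap in Ptdss1 knockdown replicate 1. Plscr1 (ENSMUSG00000032369, chromosome 9, 92249750 to 92272278, plus strand) is an interferon-inducible protein whose own scramblase activity is debated. It was at 9.79, 7.37 and 8.66 in control, 9.08, 9.07, 9.26 and 9.84 in Mertk KO, and 2.99, 8.60 and 9.39 in Ptdss1 knockdown. The value of 2.99 stands for 8 reads, and all other libraries had at least 157. The difference was 0.71 (95% interval -1.88 to 3.30) in Mertk KO and -1.61 (95% interval -4.38 to 1.16, limma adjusted p = 0.841) in Ptdss1 knockdown. Over the 8 libraries these were 0.09 (95% interval -0.93 to 1.11) and -0.23 (95% interval -1.41 to 0.94). The 8 libraries spanned 1.24 in all, the narrowest range of the members after Tmem30a.

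Plscr3 (ENSMUSG00000019461, chromosome 11, 69846376 to 69852058, plus strand) is the mitochondrial member of the family and is linked to the movement of cardiolipin. It was at 7.81, 10.47 and 8.51 in control, 8.31, 7.98, 9.83 and 8.93 in Mertk KO, and 2.63, 9.57 and 9.12 in Ptdss1 knockdown, the first of these standing for 6 reads. Its difference from control in Ptdss1 knockdown turned from -1.82 (95% interval -4.86 to 1.22) to 1.19 (95% interval -0.20 to 2.58, limma adjusted p = 1.0) over the 8 libraries, where the 2 knockdown libraries lay above the 2 controls. In Mertk KO it turned from -0.17 (95% interval -3.01 to 2.68) to 0.60 (95% interval -0.60 to 1.81). Neither direction passed. Its exons share 891 bases with Tnk1 on the other strand, which had 1 read in control replicate 3 and 0 in the other libraries. Of the rest of the family, Plscr2 was tested, with at most 21 reads, and was at -1.31 (SE 1.68) in Mertk KO and -2.82 (SE 1.80) in Ptdss1 knockdown.

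**Figure D4:**
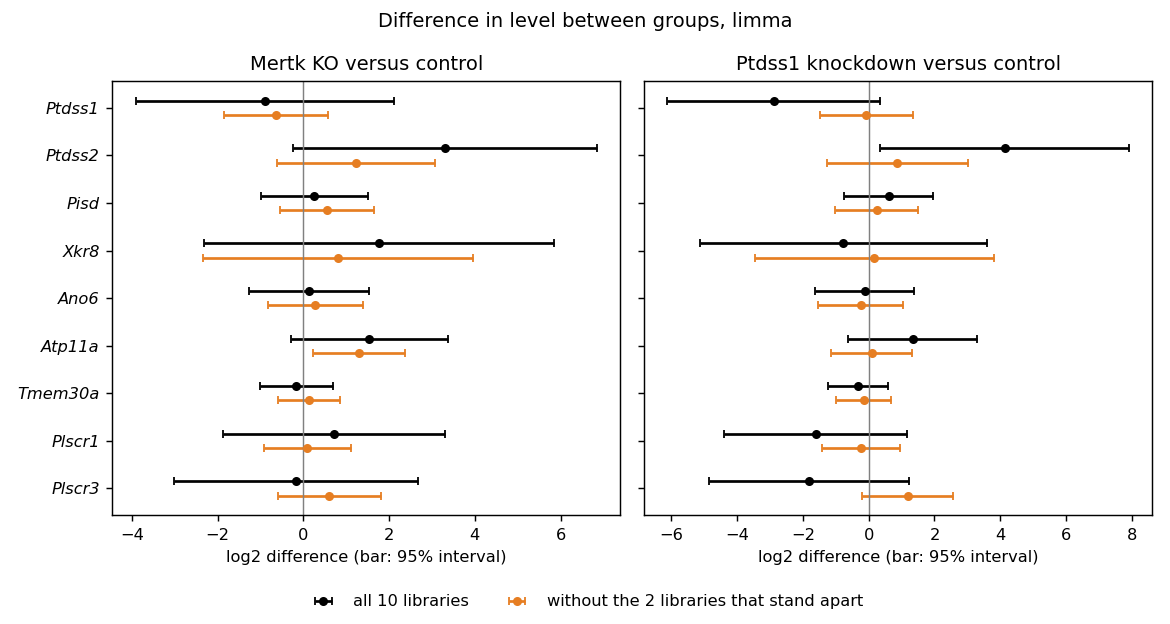
Difference of each member's mean log2 level from control (horizontal axis, bars are 95% intervals from limma) in Mertk KO, left, and Ptdss1 knockdown, right, with all 10 libraries in black and without control replicate 2 and Ptdss1 knockdown replicate 1 in orange. Over 8 libraries Atp11a in Mertk KO, at 1.30, has an interval above 0 but did not pass (limma adjusted p = 0.907). The intervals are not adjusted for the number of genes tested. In Ptdss1 knockdown Ptdss1 moves from -2.89 to -0.08.

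As a set, 6 of the 9 members had positive differences in Mertk KO against control, with a median of 0.25, where the median of all genes tested was 0.016 and 50.9% were positive. Over the 8 libraries 8 of 9 were positive, with a median of 0.54 beside -0.083 for all genes. In Ptdss1 knockdown against control 3 of 9 were positive, with a median of -0.32 beside -0.053, and over the 8 libraries 5 of 9, with a median of 0.088 beside 0.024. With all 10 libraries 1 member, Ptdss2, was higher than control without overlap in Ptdss1 knockdown and 0 were lower, while 3.32% of all genes were higher and 3.60% lower in that way. With 2 libraries against 2, Ptdss2 and Plscr3 were higher without overlap and Ano6 was lower. So few libraries part easily, and the share of all genes was not counted there, so this sets no member apart. In Mertk KO against Ptdss1 knockdown 7 of 9 differences were positive, with a median of 0.26 beside 0.11. The 8 libraries again gave 7 of 9 positive, with a median of 0.32 beside -0.11. With all 10 libraries none of the 9 was without overlap there, against 2.91% of all genes higher and 2.32% lower. Over the 8 libraries Atp11a was higher without overlap, and the share of all genes was not counted for that either. In that direct comparison Plscr1 was at 2.32 (95% interval -0.27 to 4.91), Xkr8 at 2.53 (95% interval -1.54 to 6.61) and Ptdss1 at 1.99 (95% interval -1.03 to 5.01). Without Ptdss1 knockdown replicate 1 these were 0.32, 0.64 and -0.56.

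The rest of the pathway gave no called gene. Of 71 further genes listed for flipping, scrambling, transfer, synthesis of precursor lipids, turnover and caspases, 70 were in the tables and 44 were tested. Over these 44, 0 rose and 0 fell in any of the 3 comparisons, and 18, 25 and 23 had positive differences. Their medians were -0.078 in Mertk KO against control, 0.13 in Ptdss1 knockdown against control and 0.020 between Mertk KO and Ptdss1 knockdown. Among 10 tested genes of phosphatidylcholine and phosphatidylethanolamine synthesis, which supply the synthases with substrate, 2 were positive in Mertk KO with a list median of -0.25, and over the 8 libraries 5 were, with a median of 0.15. Selenoi, which makes phosphatidylethanolamine in its last step, was at 1.85 (SE 1.26), or 1.05 over the 8 libraries, and Pcyt2, an earlier enzyme of that route, at -1.50 (SE 1.03). In Ptdss1 knockdown Chpt1, a cholinephosphotransferase, was at -2.64 (SE 1.37) and at -0.17 over the 8 libraries.

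For lipid transfer and scrambling inside the cell, 10 of 13 genes were tested, with list medians of -0.050 in Mertk KO and -0.017 in Ptdss1 knockdown, which were 0.015 and 0.062 over the 8 libraries. Atg9a, a scramblase of autophagy, was at 2.86 (SE 1.73) in Mertk KO, and Gramd1b, a sterol carrier that senses phosphatidylserine, at 1.49 (SE 1.28). In Ptdss1 knockdown Atg2a, a lipid transfer protein of autophagy, was at -3.36 (SE 1.57), and at -1.24 over the 8 libraries. Osbpl8, which exchanges phosphatidylserine for a phosphoinositide, was at 1.10 (SE 0.65). All 5 turnover genes were tested. Abhd12, a lysophosphatidylserine lipase, was at 0.72 (SE 0.50) in Mertk KO and 0.57 (SE 0.53) in Ptdss1 knockdown, or 0.48 and 0.32 over the 8 libraries. The 5 caspases included Casp6 at 1.21 (SE 0.61) in Mertk KO, which was 0.42 over the 8 libraries. Casp8 was at 0.81 (SE 0.54) in Ptdss1 knockdown and 0.028 over the 8 libraries.

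Plscr1 is also read with interferon-stimulated genes, of which 18 of 18 listed were tested and 0 passed in any comparison. In Mertk KO 3 of 18 were positive with a median of -0.89, or -0.72 over the 8 libraries, and Plscr1 was on the positive side. Irf7, the transcription factor that amplifies the interferon response, was at -1.29 (SE 0.60, limma adjusted p = 1.0), and Cmpk2, a mitochondrial nucleotide kinase, at -3.66 (SE 1.93). In Ptdss1 knockdown 11 of 18 were positive with a median of 0.49, and over the 8 libraries 12 of 18 with a median of 0.26. In Mertk KO against Ptdss1 knockdown 2 of 18 were positive with a median of -0.77. The 8 libraries gave 4 positive, with a median of -0.96. With all 10 libraries 7 of the 18 had an unadjusted p below 0.05, beside 3.73% of all genes tested. The smallest belonged to Bst2, an antiviral membrane protein, which was higher in Mertk KO, at 1.60 (SE 0.45, limma adjusted p = 0.805). Bst2 was at -1.38 in Ptdss1 knockdown against control (SE 0.48, limma adjusted p = 0.841). In Ptdss1 knockdown replicate 1, where Plscr1 had 8 reads, 12 of the 18 were at their highest level of the 10 libraries, and Ifi44 (2.82) was at its lowest. Mx1 (0.90) and Dhx58 (1.45) were close to unread there.

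The gene most like each member over the 10 libraries, by Pearson correlation of log2 levels, was 2210016L21Rik for Ptdss1 (r = 0.990), Lztr1 for Ptdss2 (0.983), Slc25a1 for Pisd (0.978), Fcrls for Xkr8 (0.958) and Ankrd12 for Ano6 (0.868). For Atp11a it was Gpatch8 (0.948), for Tmem30a Rab10 (0.926), for Plscr1 Sirpb1b (0.990) and for Plscr3 Sgta (0.993). Each is the best match among all other genes tested, and the points share libraries and detection. Over the 8 libraries the values were between 0.734 for Ptdss2 and 0.960 for Pisd.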

How the data were processed

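RNA of sorted macrophages was amplified with a SMART-Seq v4 kit by 16 PCR cycles and sequenced as single reads of 75 cycles, per the labels' protocols. STAR, RSEM and the mm10 build are named in the submitters' processing notes, without versions or roles. The authors deposited 1 table per library. Its unit is not stated, and the values, on a log2 scale, are whole multiples of 1 step per library after undoing log2(value + 1). They were read as log2 of a read count over a size factor, plus 1. Whole reads came back for 100% of values within 0.01 of a read. Reads are not molecules, so limits from 0 reads, set at 3 reads, cover counting error only.

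Because the deposited values are log2 and not counts, limma-trend (limma 3.58.1, R 4.3.3) with robust moderation replaced a count test, with 1 mean per group over 10 libraries, no covariate, two-sided p and 11564 genes. All 21938 IDs matched GENCODE M21 on GRCm38, whose merged exons gave the lengths for RPKM, and 14 symbols that differed were taken from it. Members, lists and tests were chosen with earlier results of these data known. Named beside the members were up to 2 genes of smallest p per list and the gene most correlated with each member. Cell type markers were named from lists. The ratios, Atp9b, Atp11b, Nptn, Mx1 and Dhx58 were picked after values were seen. The code of the fit was run on simulated reads with known changes. That simulation held no library that stands apart, so it does not measure how well the fit finds changes in these data. Alternatives were 2 other scalings, no filter, a filter of 50 reads, a pseudocount of 8, limma-voom, no robust moderation, array weights, only the compared groups, and left-out libraries. Atp10d was not analysed here, and some genes of the lists are not reported by name.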

Additional observations from a re-analysis of the deposited data

How the results depend on the processing

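No member passed under any of 20 alternatives in the 3 comparisons, and the smallest member adjusted p, by limma, was 0.177, for Atp11a between Mertk KO and Ptdss1 knockdown with array weights. Of 540 recomputed member differences 38 changed sign, and 10 of 27 differences never did, among them Ptdss1, Ptdss2 and Atp11a against control in both groups. Genes called over the whole table in Mertk KO against control were 2, and 0 with upper-quartile factors, with no filter or with 50 reads, 1 without robust moderation, 25 with array weights and 0 to 4 when 1 library was left out. Array weights gave 2 in Ptdss1 knockdown against control and 35 in the direct comparison, where 1 passed without both libraries that stand apart. The cause was not tested. The differences that changed sign follow. In Mertk KO against control, voom turned Plscr3 to 0.15, and array weights gave 0.019 for Tmem30a, -0.074 for Plscr1 and 0.049 for Plscr3. Without both libraries, Tmem30a was 0.13 and Plscr3 0.60. In Ptdss1 knockdown against control, Xkr8 and Plscr3 were 0.66 and 0.92 with array weights, and 0.17 and 1.19 without both libraries. In the direct comparison, array weights gave -0.51 for Ptdss1, 0.15 for Ptdss2, -0.42 for Xkr8 and -0.87 for Plscr3. Without both libraries, Ptdss1 was -0.56, Ptdss2 0.36, Pisd 0.30 and Plscr3 -0.58. With 1 library left out, Mertk KO against control ranged from -0.18 to 0.54 for Pisd, -0.15 to 0.39 for Ano6, -0.34 to 0.13 for Tmem30a and -0.73 to 0.60 for Plscr3. Ptdss1 knockdown against control ranged from -0.045 to 0.93 for Pisd, -2.23 to 1.13 for Xkr8, -0.38 to 0.056 for Ano6, -2.81 to 0.39 for Plscr1 and -3.05 to 0.42 for Plscr3. The direct comparison ranged from -0.56 to 3.30 for Ptdss1, -1.48 to 0.36 for Ptdss2, -0.79 to 0.30 for Pisd, -0.025 to 0.52 for Ano6, -0.52 to 1.22 for Atp11a and -0.58 to 2.88 for Plscr3. Upper-quartile factors moved the median of all genes to -0.23 in Ptdss1 knockdown against control and to 0.33 in the direct comparison, from -0.053 and 0.11. No paired analysis was possible because the replicate numbers are names in accession order and pair no libraries. Counting error limits what can be said of Xkr8, with under 10 reads in 3 libraries.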

Other observations

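Osbpl5, a phosphatidylserine transfer protein that was not tested because 2 of the 10 libraries had 10 reads or more, reached 26.4 RPKM in Ptdss1 knockdown replicate 1. It was at 1.32 in Mertk KO replicate 4 and below 0.04 in the other 8 libraries. Pcyt2 reached 101 RPKM in Ptdss1 knockdown replicate 1 against 1.28 to 8.52 in the 8 libraries other than those that stand apart. Both were picked after their values were seen.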
